A study of Homo sapiens with 12 samples.

Results

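Oxidative phosphorylation genes are described here in human neuron cultures after knockdown of ZCCHC17. The genes were chosen by symbol: subunits of the 4 respiratory chain complexes and of ATP synthase with the stems NDUFA, NDUFB, NDUFC, NDUFS, NDUFV, SDH, UQCR, COX4 to COX8 and ATP5, together with the protein genes of the mitochondrial DNA. Of the 59653 gene symbols in the count table, 250 matched, 150 of them were left out as pseudogenes, and 94 of the remaining 100 had a mean of at least 50 counts over the 12 libraries. These 94 genes are 81 nuclear genes and all 13 protein genes of the mitochondrial DNA. MT-ATP6 and MT-ATP8 were kept, although a filter that drops every symbol ending in P and digits would read them as pseudogenes. The lowest mean counts among the 94 genes were 97.5 for COX6B2 and 140.1 for NDUFA7. The 6 genes below the limit were ATP5MGL (mean count 21.3), COX8C (19), COX6A2 (1.17), COX7A1 (0.167), COX7B2 (0.167) and COX4I2 (0).

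Total RNA was sequenced from neurons made from induced pluripotent stem cells of IMR-90, an established human lung fibroblast line. The cells of 6 libraries (siNC) had been given a negative control siRNA and those of 6 libraries (siZCC) an siRNA against ZCCHC17, which encodes a zinc knuckle protein. All 12 libraries share 1 cell line, and the labels give no siRNA sequence, dose or time and do not say whether replicates were separate cultures, so p-values measure the spread between these libraries, which may be technical. The study's title concerns neuronal RNA splicing and Alzheimer's disease, and the comparison of siZCC with siNC is the only one in the design. ZCCHC17 fell from 56.9 ± 2.49 counts-per-million (CPM) to 10 ± 0.507, each ± SD with n = 6, a log2 fold change of -2.51.

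Mitochondrial respiration passes electrons from NADH and succinate through complexes I and II to ubiquinone, then through complex III and cytochrome c to complex IV, where oxygen is reduced. Complexes I, III and IV pump protons across the inner membrane, and ATP synthase, complex V, uses the resulting gradient to make ATP. Every complex except complex II combines subunits from the nuclear genome with subunits from the mitochondrial DNA, and neurons depend heavily on this pathway for firing and synaptic transmission.

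Library totals were 90755953 to 120023356 counts in siNC and 76115083 to 105389055 in siZCC. The cultures expressed markers of neurons together with those of neural progenitors and dividing cells. Levels of the neuron markers were uneven, with MAP2 at 899.6 to 1169 CPM and RBFOX3 at 1.06 to 1.46 CPM in siNC. The sample titles carry the letters NPC, which the labels do not explain. Of all genes tested, 22.2% passed an adjusted p of 0.05 in edgeR between the groups, 11.4% higher and 10.8% lower in siZCC. Of 14 neuron markers, 7 fell and 1 rose in siZCC (summed level 4008 to 4479 CPM in siNC and 3614 to 4109 in siZCC). Of 10 proliferation markers, 8 fell and 0 rose (769 to 852 CPM and 622 to 725 CPM). Progenitor markers summed to 5865 to 6243 CPM in siNC and 5915 to 6444 in siZCC, with 3 of 9 rising and 1 falling. Astrocyte markers summed to 1637 to 1859.9 and 1704 to 2025 CPM, with 3 of 8 rising and 1 falling. Mesenchymal and fibroblast markers summed to 179 to 408 and 156 to 287 CPM, with 1 of 6 rising and 2 falling. Among them COL1A1 varied between libraries, from 69.8 to 296 CPM in siNC and 29.8 to 142 CPM in siZCC. Of the 6 microglia markers AIF1, CX3CR1, P2RY12 and C1QA were under 0.1 CPM, as were CDH5 of the endothelial markers, MOG and SOX10 of the oligodendrocyte markers, and LIN28A and TDGF1 of the pluripotency markers. The part of these marker changes in the results below was not tested, and in bulk RNA fewer cells of a type and less RNA per cell cannot be told apart. IL1B, an inflammatory cytokine gene, was above 1 CPM in siNC 2, 3 and 6 and in siZCC 1, 4 and 5 and below it in the other libraries, a split that crosses the groups.

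Reads of several of these genes cannot be assigned with certainty, and 2 features of the mitochondrial genome bear on the values. MT-ATP8 and MT-ATP6 overlap by 46 bases, and MT-ND4L and MT-ND4 by 7, and each pair lies on 1 mature transcript, so a read over the overlap belongs to both genes. The overlaps are shown because MT-ATP6 and MT-ND4L carry results below. They are printed 5′ to 3′ in the direction of the genes, from the GRCh38 mitochondrial sequence, with the shared bases in capitals.
MT-ATP8 and MT-ATP6, chrM:8507-8592: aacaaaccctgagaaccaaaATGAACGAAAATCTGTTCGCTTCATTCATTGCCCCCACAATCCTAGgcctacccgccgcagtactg
MT-ND4L and MT-ND4, chrM:10740-10786: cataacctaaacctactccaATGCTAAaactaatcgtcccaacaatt
A nuclear copy of part of the mitochondrial genome holds MTCO1P12, which matches MT-CO1 at 98.7% of 1542 aligned bases, with 20 mismatches. A read that covers none of the 20 mismatches could come from either gene. The stretch of bases 90 to 149 of MT-CO1 is printed with that of the copy. It holds a single mismatch, in capitals, by which a read that covers it can be told apart.
MT-CO1: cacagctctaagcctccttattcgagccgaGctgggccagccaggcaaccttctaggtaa
MTCO1P12: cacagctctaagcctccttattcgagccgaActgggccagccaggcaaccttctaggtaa
Words of 50 bases were taken from 1 main transcript of each gene and sought on either strand, so antisense overlaps count as shared. Of all such words of MT-CO1, 49.5% also occur in a transcript of another gene, against a median of 5.84% over the 94 genes. For 28 of the 94 genes no word of the main transcript is shared, although NDUFC1 among them has 18.6% of its exon bases in an overlap with another gene. For 6 genes 50% or more are shared: NDUFV2 (82%), NDUFB2 (80%), NDUFA7 (76.8%), NDUFB8 (72.7%), ATP5PO (69%) and NDUFA11 (63.9%). How reads that fit more than 1 gene were counted is not given in the sources used here. The levels of these 6 genes and of MT-CO1, MT-ATP6 and MT-ND2 are therefore uncertain. So are those of other genes with large shares, among them COX6A1 (44%), NDUFB11 (43.1%), NDUFA13 (41.3%) and NDUFA1 (40.7%). NDUFV2, a core iron-sulfur subunit of complex I, had only 1.79 CPM in siNC (± 0.297, SD, n = 6).

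Most oxidative phosphorylation genes differed little between the groups. Of the 94 genes, 12 had an adjusted p under 0.05 in edgeR's quasi-likelihood test (Benjamini-Hochberg over 24671 genes), which is 12.8% against 22.2% of all genes tested; 10 were higher in siZCC, where 11.4% of all genes were, and 2 were lower, where 10.8% of all genes were. The median log2 fold change of the 94 genes was 0.015, against -0.0016 over all genes tested. The median absolute log2 fold change was 0.057, against 0.11 over all genes tested. The 95% interval of the fold change lay within ±0.25 on the log2 scale for 86 of the 94 genes (91.5%), against 43.9% of all genes tested. These are abundant genes, with a median siNC level of 50.8 CPM against 5.79 CPM over all genes tested and a median standard error of 0.038 against 0.071. The largest rise was that of NDUFS7 and the largest fall that of NDUFC2, both in complex I.

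**Figure D1:**
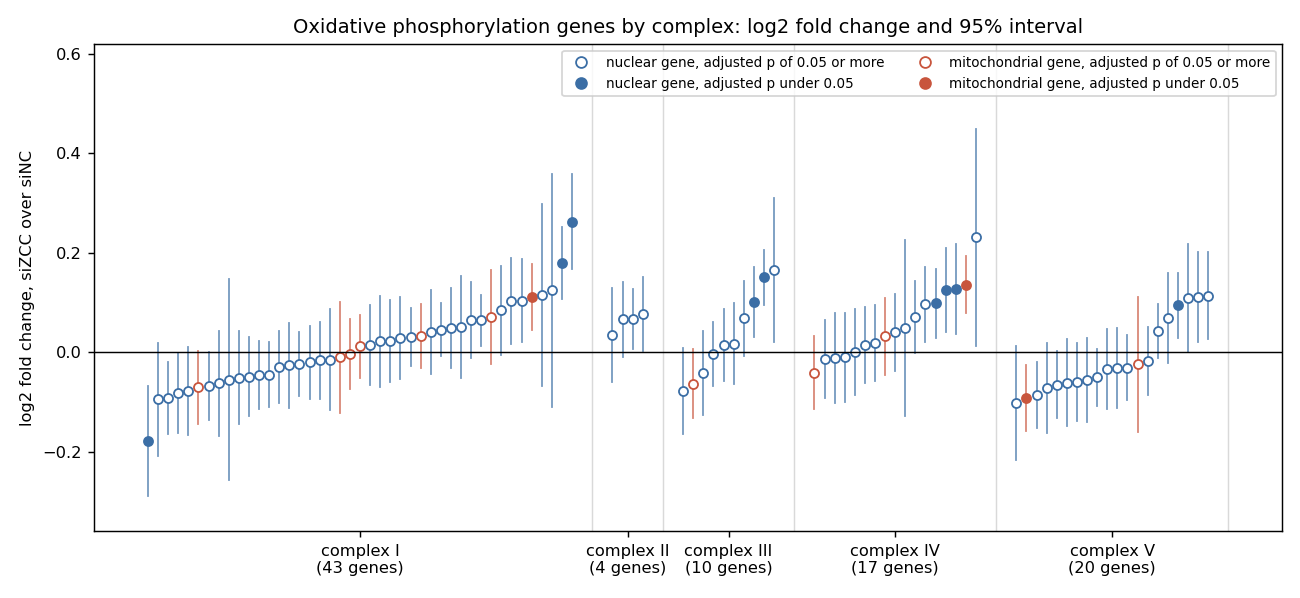
Log2 fold change of siZCC against siNC for each of the 94 oxidative phosphorylation genes, with its 95% interval as a line, grouped by respiratory complex and sorted by value within it, with nuclear and mitochondrial genes marked apart and genes with an adjusted p under 0.05 filled. The 12 filled genes lie between -0.18 and 0.26, and most points lie near 0.

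NDUFS7, UQCRC2, NDUFV1, MT-CO1 and MT-ND4L kept an adjusted p under 0.05 whichever library was left out, and NDUFC2 lost it only without siZCC 4 (adjusted p = 0.056). The calls of COX7C, ATP5F1B, UQCRC1 and COX6B1 were lost when any one of siNC 1, 4, 5 or 6 or siZCC 1, 4, 5 or 6 was left out, with highest adjusted p-values of 0.0821, 0.0853, 0.0871 and 0.101. That of COX7A2L was lost without siNC 4, 5 or 6 or siZCC 1, 5 or 6 (up to 0.106), and that of MT-ATP6 without any one of 10 libraries, all but siNC 2 and siZCC 6 (up to 0.115). The count over the 94 genes then ran from 6 to 16, while every one of the 12 genes kept its direction. As the 12 genes were called from these same libraries, a kept direction was likely in advance. Of all genes tested, 18.2% were called without siNC 6, where 6 of the 94 were, and 22.8% without siZCC 2, where 16 were. A correction for GC content and length, which covers the nuclear genes only, called 19 of 81 (16 higher and 3 lower) where 26.7% of all genes in that fit were called.

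The shares of all counts held by the nuclear and by the mitochondrial genes differed between the groups by less than their spread. The 13 mitochondrial genes held 3.22% ± 0.1 of all counts in siNC and 3.25% ± 0.095 in siZCC (SD, n = 6 each), and the 81 nuclear genes 0.52% ± 0.020 and 0.526% ± 0.011. Mitochondrial counts were 5.84 to 6.54 times the nuclear counts in siNC libraries and 5.89 to 6.49 times in siZCC libraries. The ranges overlapped for both shares and for their ratio. Of the 81 nuclear genes, 8 rose and 1 fell (11.1% called, against 22.2% of all genes tested), with a median log2 fold change of 0.017. Of the 13 mitochondrial genes, 2 rose and 1 fell (23.1% called, against 22.2% of all genes tested), with a median of -0.0027, and the 95% intervals of all 13 lay within ±0.25.

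Complex I oxidises NADH, and its nuclear subunits divide into a conserved core that carries the flavin and the iron-sulfur clusters and accessory subunits that surround it. Of its 43 measured genes, 3 rose and 1 fell (9.3% called, against 22.2% of all genes tested), with a median log2 fold change of 0.012. The 7 nuclear core genes had a median of 0.10, with 6 of 7 above 0 and 2 called, NDUFS7 and NDUFV1. The 29 nuclear accessory genes had a median of -0.020, with 17 below 0 and 1 called, NDUFC2. The core and accessory genes were split by known role, and the difference between them was not tested.

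NDUFS7 encodes the core subunit with cluster N2, the last iron-sulfur cluster before ubiquinone. Its gene lies at chr19:1383527-1395589 (GRCh38, GENCODE v29, forward strand). In siNC it had 50.4, 57.7, 53.4, 52.1, 51.5 and 47.9 CPM in replicates 1 to 6. In siZCC it had 64, 56.3, 60.5, 66, 62.5 and 66.4 CPM. The highest siNC library, replicate 2, lay above the lowest siZCC library, also replicate 2, and the other siZCC libraries were above all siNC libraries. The means were 52.2 ± 3.3 and 62.6 ± 3.79 CPM (SD, n = 6 each), a log2 fold change of 0.26 (SE 0.045, edgeR adjusted p = 0.000594). None of its exon bases overlap another gene on the same strand and 49.1% do on either strand, and 25.9% of its words are shared, most with the antisense gene AC005329.1. The strand setting of the counts is not given, so reads of the pair cannot be told apart, and AC005329.1 itself had a log2 fold change of -0.034 (adjusted p = 0.707).

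NDUFV1 encodes the core subunit that binds NADH and the flavin, and lies at chr11:67605653-67612554. Its siNC libraries had 110.0, 122, 119, 114, 115 and 104 CPM. Its siZCC libraries had 132, 125, 127, 132, 132 and 128 CPM. Every siZCC library was above every siNC library, and the means were 114 ± 6.18 and 129 ± 3 CPM (SD, n = 6 each). The log2 fold change was 0.18 (SE 0.034, edgeR adjusted p = 0.0013). Groups without overlap were found for 4 of the 94 genes, all higher in siZCC, against 9.74% of all genes in either direction, 5.25% in the higher and 4.5% in the lower direction. Other core genes that did not pass the test had log2 fold changes of 0.10 for NDUFS8 (adjusted p = 0.0805), 0.046 for NDUFS1, -0.026 for NDUFS3 and 0.12 for NDUFV2.

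NDUFC2, an accessory subunit of the membrane arm, lies at chr11:78068304-78080219 on the reverse strand. In siNC it had 20.6, 20.1, 24.2, 19.5, 19.6 and 20.7 CPM, and in siZCC 18, 20.1, 18.1, 17, 18 and 19 CPM. The siNC 3 library stood above the rest and siZCC 2 lay inside the siNC range. The mean went from 20.8 ± 1.75 to 18.4 ± 1.07 CPM (SD, n = 6 each), a log2 fold change of -0.18 (SE 0.053, edgeR adjusted p = 0.0221). Of its words 16.8% are shared, most with the read-through gene NDUFC2-KCTD14, so part of its counts may belong to that transcript. The other accessory genes ran from -0.094 for NDUFB8 to 0.12 for NDUFA13 without passing the test.

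Complex II, succinate dehydrogenase, is both a citric acid cycle enzyme and the second entry to the chain, and has no mitochondrially encoded subunit. SDHA and SDHB, its catalytic and iron-sulfur subunits, had log2 fold changes of 0.066 (SE 0.036) and 0.077 (SE 0.035). The membrane anchors SDHC and SDHD had 0.067 (SE 0.029) and 0.035 (SE 0.045). All 4 values were above 0 and 0 of 4 genes passed the test, with adjusted p-values from 0.106 to 0.635 in edgeR. At an unadjusted p under 0.05 there were 2 of the 4, SDHB and SDHC, and DESeq2's Wald test also called 0. With the correction for GC content and length, SDHA and SDHB passed.

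Complex III passes electrons from ubiquinol to cytochrome c. Of its 10 measured genes, 2 rose and 0 fell (20% called, against 22.2%), and these were its large core proteins UQCRC1 and UQCRC2, with a median of 0.016 over the 10. UQCRC2, at chr16:21952660-21983660, had 137, 147, 142, 135, 145 and 137 CPM in siNC. The siZCC level was 154, 158, 157, 157, 155 and 156 CPM. The siZCC libraries formed a narrow band above all siNC libraries. The means were 141 ± 4.64 and 156 ± 1.48 CPM (SD, n = 6 each), a log2 fold change of 0.15 (SE 0.026, edgeR adjusted p = 0.000646), and none of its words is shared with another gene. UQCRC1, at chr3:48599002-48610976, had 139, 145, 141, 137, 137 and 133 CPM in siNC and 151, 137, 143, 153, 153 and 155 CPM in siZCC. The siZCC 2 library lay among the siNC libraries, as did siZCC 3, and the remaining 4 were above them. Its log2 fold change was 0.10 (SE 0.033, edgeR adjusted p = 0.0365). The hinge protein gene UQCRH and its near copy UQCRHL had log2 fold changes of 0.068 and 0.17, with adjusted p-values of 0.187 and 0.0947, and the mitochondrial cytochrome b gene MT-CYB had -0.063 (adjusted p = 0.193).

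Complex IV, cytochrome c oxidase, had 4 of 17 genes that rose and 0 that fell (23.5% called, close to the 22.2% of all genes tested), with a median log2 fold change of 0.040 and 13 of 17 values above 0. The nuclear genes were COX7C, COX6B1 and COX7A2L, and the mitochondrial gene was MT-CO1. COX7C, a small membrane subunit, had 114, 119, 125, 109, 114 and 107 CPM in siNC and 133, 116, 120.5, 128, 128 and 126 CPM in siZCC. Its groups overlapped, with siNC 3 above siZCC 2 and siZCC 3, and its log2 fold change was 0.13 (SE 0.04, edgeR adjusted p = 0.0326). COX6B1, which joins the monomers of the enzyme, had 75, 84.8, 80.1, 75.8, 75.5 and 74.8 CPM in siNC and 86.1, 77.4, 80.9, 85.3, 86.1 and 93.2 CPM in siZCC. The siNC 2 library exceeded siZCC 2 and siZCC 3, and the log2 fold change was 0.13 (SE 0.043, edgeR adjusted p = 0.041). COX7A2L, which links complexes III and IV into supercomplexes, had a log2 fold change of 0.099 (SE 0.033, edgeR adjusted p = 0.0383), from 70.2 ± 2.88 to 75.2 ± 2.62 CPM (SD, n = 6 each).

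**Figure D2:**
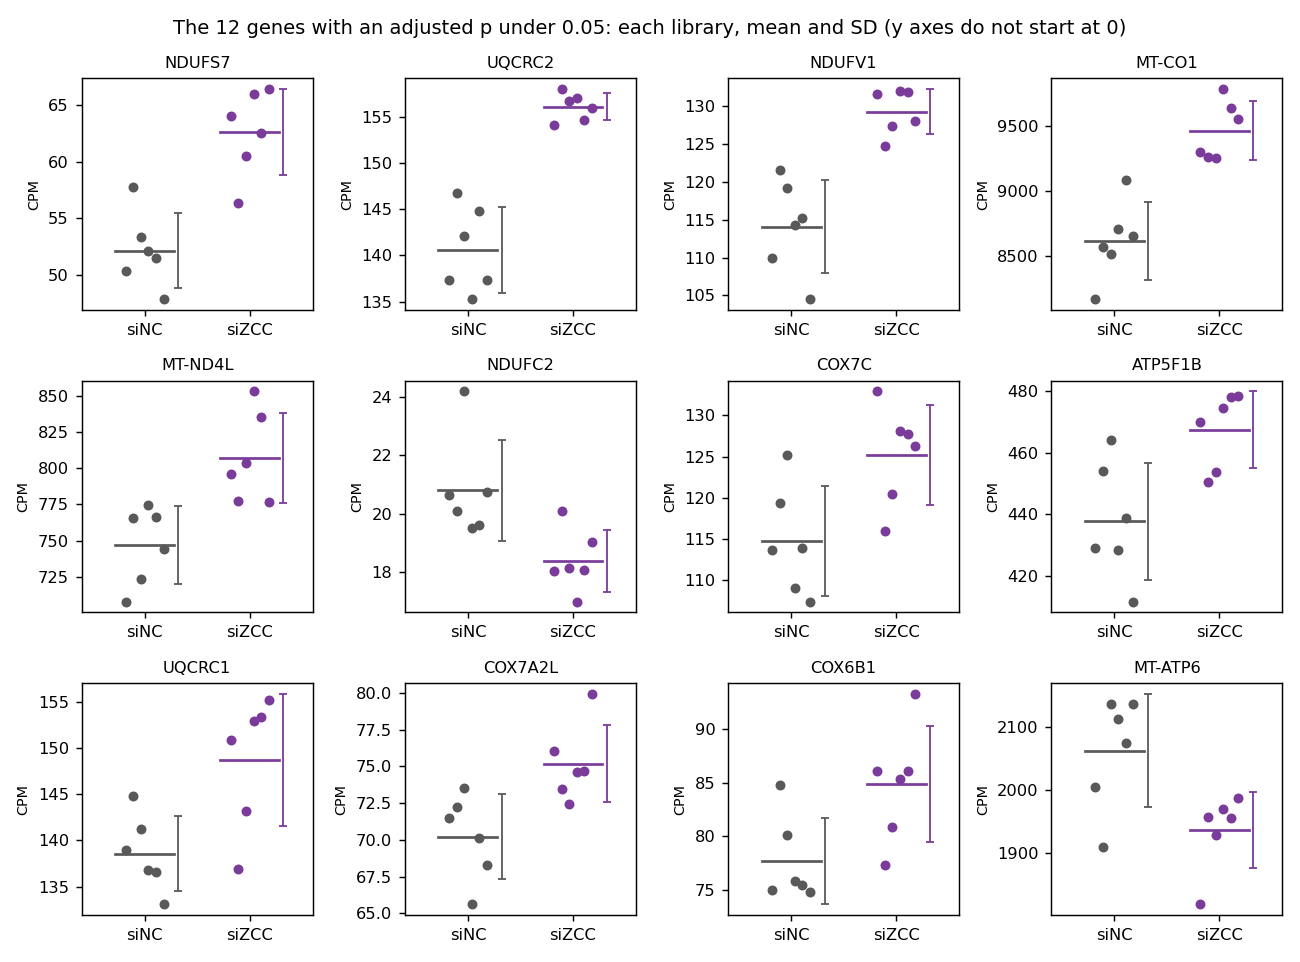
Level in CPM of each of the 12 genes with an adjusted p under 0.05, 1 point per library, with the group mean and SD; each gene has its own linear axis. In UQCRC2, NDUFV1, MT-CO1 and MT-ND4L the siZCC points all lie above the siNC points, and in the other 8 genes the groups overlap.

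Several complex IV subunits exist as paralogues with different tissue patterns, and in these cultures 1 form predominated in most sets. COX4I1, the common form of subunit 4, had 158 ± 7.4 CPM in siNC (SD, n = 6), and the lung form COX4I2 had 0 counts in every library. COX6A1 had 33.5 CPM and COX7A2 57.1 CPM in siNC, while the heart and muscle forms COX6A2 and COX7A1 had at most 4 and 1 counts in any library. COX7A2L, a further paralogue of COX7A2, had 70.2 CPM in siNC, so COX7A2 did not predominate over it. COX6B2, the testis form of subunit 6B, had 0.897 ± 0.0657 CPM in siNC and 1.05 ± 0.151 in siZCC (SD, n = 6), a log2 fold change of 0.23 that did not pass the test (adjusted p = 0.122). NDUFA4, once assigned to complex I and now to complex IV, had 102 CPM and its hypoxia-inducible paralogue NDUFA4L2 4.45 CPM in siNC, with log2 fold changes of 0.019 and 0.049. COX6A1, COX7A2 and COX7B had log2 fold changes of 0.0012, -0.011 and 0.014 and did not pass the test.

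Complex V was the complex whose values lay mostly below 0: 14 of 20 genes, with a median log2 fold change of -0.032, of which 1 rose and 1 fell past the threshold (10% called, against 22.2% of all genes tested). ATP5F1B, the catalytic beta subunit and the nuclear member with the highest level per length, had 429, 454, 464, 428, 439 and 412 CPM in siNC. The siZCC libraries had 469.8, 451, 454, 475, 478 and 478 CPM. The groups overlapped, with siNC 2 and siNC 3 above siZCC 2 and siZCC 3. The log2 fold change was 0.095 (SE 0.031, edgeR adjusted p = 0.0358), from 438 ± 19 to 467 ± 12.3 CPM (SD, n = 6 each). The 5 subunits of the catalytic F1 head had a median of 0.043, with ATP5F1A at 0.043, ATP5F1D at 0.11, ATP5F1C at -0.065 and ATP5F1E at -0.061. The 13 other nuclear genes, which build the membrane rotor and the stalk or regulate the enzyme, had a median of -0.034, with 10 below 0 and 0 called in edgeR (3 at an unadjusted p under 0.05). ATP5PF, a stalk subunit, came nearest to a call among those below 0, with -0.085 (adjusted p = 0.0615), and it passed in DESeq2's Wald test and with upper quartile scaling. ATP5IF1, the inhibitor that stops ATP hydrolysis when the gradient fails, had -0.051 (adjusted p = 0.21).

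The rotor's c subunit is made from 3 genes, ATP5MC1, ATP5MC2 and ATP5MC3, that encode the same mature protein behind different import sequences. The last 60 coding bases of each, stop codon included, are shown because a read wholly within them can be assigned only by the bases that differ. They come from GENCODE v29 transcripts on GRCh38, with capitals at the 17 positions that are not the same in all 3.
ATP5MC1: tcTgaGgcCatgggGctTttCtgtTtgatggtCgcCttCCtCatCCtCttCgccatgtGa
ATP5MC2: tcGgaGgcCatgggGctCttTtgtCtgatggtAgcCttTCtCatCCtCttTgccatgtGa
ATP5MC3: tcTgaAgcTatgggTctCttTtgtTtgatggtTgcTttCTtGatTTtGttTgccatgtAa
Over the last 228 coding bases ATP5MC1 and ATP5MC2 are 89% identical, and each is 81.1% identical to ATP5MC3. ATP5MC2 had 116 ± 6.45 CPM in siNC and 126 ± 7.14 in siZCC (SD, n = 6), a log2 fold change of 0.11 (SE 0.042) with an edgeR adjusted p of 0.0592, just above the threshold. ATP5MC3 had 97.2 ± 2.85 and 96.1 ± 4.2 CPM, and ATP5MC1 27.2 ± 1.76 and 28.5 ± 1.24 CPM (SD, n = 6). Their log2 fold changes were -0.017 and 0.069, and neither passed the test.

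The 13 protein genes of the mitochondrial DNA are transcribed as long molecules, 12 from the heavy strand and MT-ND6 from the light strand, and are then cut into single messages. MT-CO1 encodes the catalytic subunit of complex IV, with the haem and copper site where oxygen is reduced, and lies at chrM:5904-7445. In siNC it had 8166, 8568, 8512, 8705, 9089 and 8654 CPM. In siZCC it had 9298, 9260.3, 9255, 9787, 9642 and 9557 CPM. Every siZCC library was above every siNC library. The means were 8616 ± 299.7 and 9466 ± 227 CPM (SD, n = 6 each), a log2 fold change of 0.14 (SE 0.027, edgeR adjusted p = 0.00179). Its nuclear copy MTCO1P12 had 92.5 ± 6.67 CPM in siNC and 113 ± 8.05 in siZCC (SD, n = 6), a log2 fold change of 0.29 in the same direction, and reads of the pair cannot be told apart over shared words.

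MT-ND4L, a small membrane subunit of complex I at chrM:10470-10766, had 708, 765, 723, 775, 766 and 744 CPM in siNC. The siZCC libraries had 796, 777, 804, 853, 835 and 777 CPM. The groups did not overlap, although siNC 4, the highest control library, came close to siZCC 6 and siZCC 2, the lowest of the siZCC libraries. The log2 fold change was 0.11 (SE 0.031, edgeR adjusted p = 0.0167). MT-ND4, which shares its transcript, had 4909 ± 156 and 5021 ± 199.7 CPM (SD, n = 6 each), a log2 fold change of 0.033 that did not pass the test (adjusted p = 0.487). The ratio of MT-ND4L to MT-ND4 counts was 0.147 to 0.157 in siNC and 0.152 to 0.169 in siZCC, with overlap, and the difference between the 2 genes was not tested.

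MT-ATP6, the subunit of complex V through which protons enter the rotor, lies at chrM:8527-9207. Its siNC libraries had 2005, 1908, 2136, 2113, 2075 and 2137 CPM. Its siZCC libraries had 1818, 1957, 1928, 1970.1, 1955 and 1986 CPM. The siNC 2 library lay within the siZCC range, siZCC 1 was below all others, and the remaining siNC libraries were above every siZCC library. The log2 fold change was -0.091 (SE 0.032, edgeR adjusted p = 0.0475), close to the threshold. MT-ATP8, on the same transcript, had 64.2 ± 5.99 and 63.1 ± 6 CPM (SD, n = 6 each) and a log2 fold change of -0.024 (adjusted p = 0.831). The ratio of MT-ATP6 to MT-CO1 counts was 0.223 to 0.251 in siNC and 0.195 to 0.211 in siZCC, without overlap; this ratio was chosen after the values were seen and is given without a test.

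The other mitochondrial genes did not pass the test. Log2 fold changes above 0 were those of MT-ND5 (0.071), MT-ND4, MT-CO2 (0.032) and MT-ND3 (0.012). Those below 0 were MT-ND2 (-0.07), MT-CYB (-0.063), MT-CO3 (-0.041), MT-ATP8, MT-ND6 (-0.01) and MT-ND1 (-0.0027). MT-ND6, the gene of the light strand, had 76.4 ± 7.07 CPM in siNC and 75.9 ± 3.96 in siZCC (SD, n = 6 each).

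**Figure D3:**
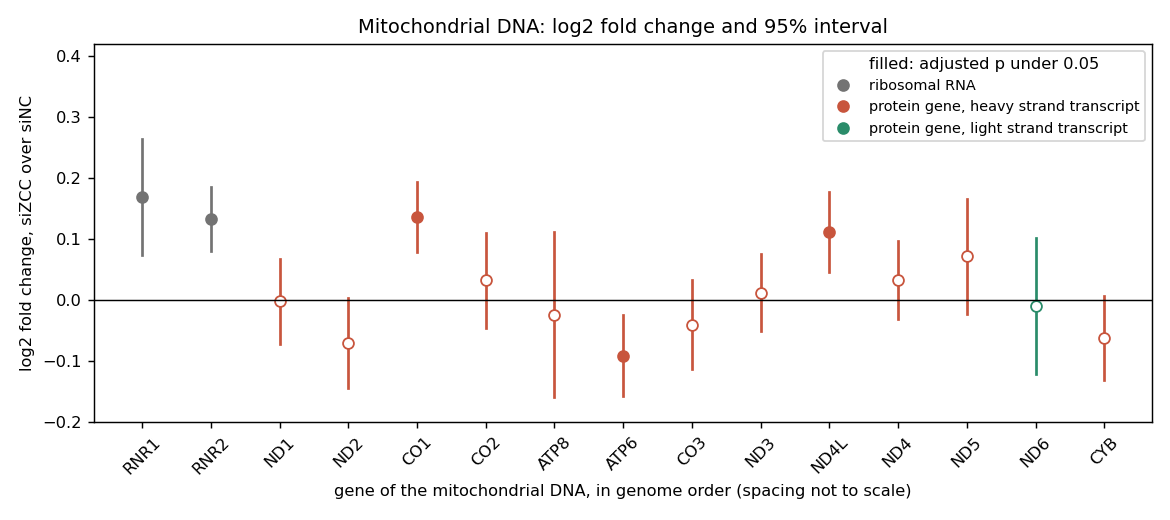
Log2 fold change of siZCC against siNC, with 95% intervals, for the 13 protein genes and the ribosomal RNA genes MT-RNR1 and MT-RNR2 of the mitochondrial DNA, in genome order with spacing not to scale; colours mark the ribosomal RNAs, the heavy-strand and the light-strand genes, and filled points have an adjusted p under 0.05. MT-RNR1, MT-RNR2, MT-CO1 and MT-ND4L are filled above 0 and MT-ATP6 is filled below 0.

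Mitochondrial genes had higher levels per length than most nuclear genes. Per kilobase of annotated exon, the siNC means of the mitochondrial genes ran from 146 CPM for MT-ND6 to 5587 for MT-CO1. MT-CO2 followed with 4810.3 CPM per kilobase, then MT-ND4 with 3563, MT-CO3 with 3162 and MT-ATP6 with 3028. MT-ATP8, at 310.2, was far below MT-ATP6 although both lie on 1 transcript. The MT-ATP8 gene is 207 bases long, with 22.2% of its bases in an overlap, and the cause of its lower level was not tested. Nuclear genes ran from 0.235 CPM per kilobase for COX6B2 to 189 for ATP5F1B, and NDUFS5, an accessory subunit of complex I, was next at 158. The length used is the union of all annotated exons, which is longer than the main transcript of many nuclear genes, so their values per kilobase are low estimates.

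**Figure D4:**
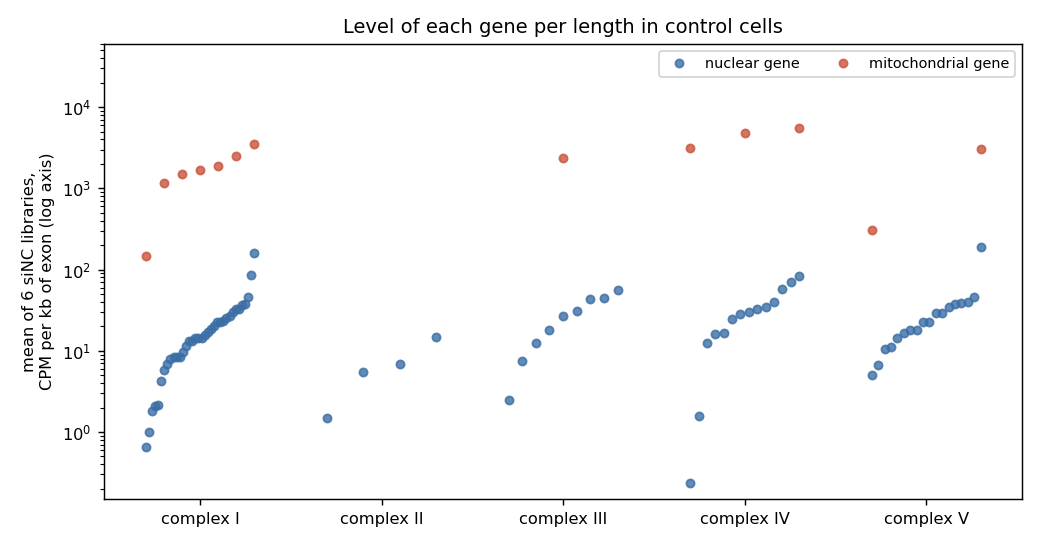
Mean siNC level per kilobase of annotated exon for each of the 94 genes, on a log axis, by complex and genome. The mitochondrial genes lie at 146 CPM per kilobase or more, and ATP5F1B at 189 and NDUFS5 at 158 are the nuclear genes that reach into their range.

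Promoter sequence, which the choice of genes did not use, was searched for motifs in the nuclear genes. RefSeq promoters on GRCh38.p14, from 250 bases before to 50 after the start, were found for 64 of the 81 nuclear genes, and motifs were searched on both strands. The ETS core CCGGAAG, bound by factors such as GABP, was present in 29.7% of the 64 promoters and in 10.3% of all 35116 promoters of the table. The YY1 motif AAGATGG was present in 26.6% and 5.84%. The NRF1 core GCATGCGC was present in 17.2% and 3.05%. The GC box GGGCGG was present in 62.5% and 45%, CCAAT in 32.8% and 34.6%, and TATAAA in 7.81% and 11.5%. Base composition was not matched and no test was run, and a match is not a bound site. Among the nuclear genes that rose, NDUFS7 held the NRF1 core, COX6B1 the ETS core and COX7C the YY1 motif in the bases before the start. These 3 upstream stretches of 250 bases are printed 5′ to 3′ in the gene's direction, with the NRF1, ETS and YY1 letters on either strand in capitals.
NDUFS7, chr19:1383657-1383906: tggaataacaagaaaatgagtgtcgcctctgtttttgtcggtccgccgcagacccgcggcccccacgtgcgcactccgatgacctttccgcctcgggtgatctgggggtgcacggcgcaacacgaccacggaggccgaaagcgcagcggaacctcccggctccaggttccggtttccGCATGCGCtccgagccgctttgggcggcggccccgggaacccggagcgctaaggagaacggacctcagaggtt
COX7C, chr5:86617691-86617940: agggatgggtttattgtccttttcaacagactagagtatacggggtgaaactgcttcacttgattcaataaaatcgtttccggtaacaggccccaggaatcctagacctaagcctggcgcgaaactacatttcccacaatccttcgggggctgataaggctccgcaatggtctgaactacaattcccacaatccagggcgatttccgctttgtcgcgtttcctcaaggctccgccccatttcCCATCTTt
COX6B1, chr19:35648073-35648322: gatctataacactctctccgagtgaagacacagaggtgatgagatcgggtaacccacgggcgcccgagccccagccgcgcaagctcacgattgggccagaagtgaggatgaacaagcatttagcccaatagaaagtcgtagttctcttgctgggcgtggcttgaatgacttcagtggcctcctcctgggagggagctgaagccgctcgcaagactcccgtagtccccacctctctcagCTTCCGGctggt
AAGATGG on either strand also lies within the first 50 bases after the start of NDUFS7, UQCRC1 and UQCRC2. The promoter of COX7A2L held the GC box alone of the 6 motifs, and that of NDUFV1 held none of them.

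Genes that build, feed or regulate the complexes moved in both directions. Of 22 complex I assembly genes, 3 rose (FOXRED1, NDUFAF3 and OXA1L) and 1 fell (NDUFAF6), which is 18.2% called against 22.2% of all genes tested. FOXRED1, an oxidoreductase needed for complex I assembly, had a log2 fold change of 0.11 (adjusted p = 0.0191), and NDUFAF3 0.14 (adjusted p = 0.0246). Of 24 complex IV assembly genes, 2 rose and 2 fell (16.7% called). COX18, which inserts the tail of the MT-CO2 protein into the membrane, went from 29.5 ± 1.88 to 34.6 ± 0.922 CPM (SD, n = 6 each), a log2 fold change of 0.23 (adjusted p = 0.000589), without overlap of the groups. COX20, a chaperone of the same protein, had -0.12 (adjusted p = 0.00901). Of 6 complex V assembly genes 33.3% were called: TMEM70 fell (-0.17, adjusted p = 0.00214) and ATPAF1, the chaperone of the beta subunit, rose (0.092, adjusted p = 0.0339). None of 4 complex II and 6 complex III assembly genes passed in edgeR (2 of each at an unadjusted p under 0.05). Of 14 genes of cytochrome c, ubiquinone synthesis and subunits outside the symbol rule, 1 rose, COQ8B (0.10), a regulator of ubiquinone synthesis. Several of these calls were lost when 1 library was left out. NDUFAF3 lost its call without siNC 4 or 6 or siZCC 4 or 6 (adjusted p up to 0.0604). ATPAF1 lost its call without siNC 1 or 6 or any one of siZCC 1 to 4 (up to 0.0754), and OXA1L without any one of siNC 1, 5 or 6 or siZCC 1, 3, 4 or 6 (up to 0.0753). NDUFAF6 lost its call without any siNC library but 3 or without siZCC 1, 4 or 6 (up to 0.0876), and COQ8B without siNC 1, 5 or 6 or any siZCC library but 2 (up to 0.0904). The other complex IV assembly calls were SURF1 (log2 fold change 0.11), lost without siZCC 3 (adjusted p = 0.0509), and COX16 (log2 fold change -0.23), lost without siNC 3 or siZCC 1 or 2 (up to 0.0646).

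Of 31 genes that transcribe, process or maintain the mitochondrial DNA, 2 rose and 4 fell (19.4% called, against 22.2% of all genes tested). FASTKD5, which is needed to process mitochondrial messages without flanking tRNAs, MT-CO1 among them, had 22.5, 21.9, 24.4, 23, 22.2 and 23.8 CPM in siNC. Its siZCC libraries had 19.6, 18.7, 18.3, 18.1, 19.4 and 19.3 CPM. The groups did not overlap, and the log2 fold change was -0.28 (adjusted p = 4.09e-05). TRMT10C, a subunit of the enzyme that cuts the 5′ ends of mitochondrial tRNAs, had -0.18 (adjusted p = 0.00325). The other called genes, named after their values were seen, were POLRMT, the mitochondrial RNA polymerase (0.14), LRPPRC, which stabilises mitochondrial messages (0.099), HSD17B10, a partner of TRMT10C (-0.13), and TFAM, which packages the mitochondrial DNA (-0.10). LRPPRC lost its call without siNC 4 or siZCC 2, 5 or 6 (adjusted p up to 0.0664), HSD17B10 without siNC 2 or 3 or siZCC 2, 3 or 4 (up to 0.0716), and TFAM without siNC 1, 5 or 6 or any siZCC library but 2 (up to 0.0822). Of 12 nuclear regulators of mitochondrial genes 16.7% were called: ESRRA rose (0.21, adjusted p = 0.000675) and MYC fell (-0.18, adjusted p = 0.00222).

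Of 18 genes of the citric acid cycle and pyruvate dehydrogenase, which supply NADH and succinate to the chain, 6 rose and 0 fell (33.3% called, against 22.2% of all genes tested), with a median log2 fold change of 0.054. SUCLG2, a subunit of succinyl-CoA ligase, had a log2 fold change of 0.19 (adjusted p = 0.000739), and PDHX, OGDH, MDH2 and SUCLG1 also rose. Of 21 genes of mitochondrial mass and import, 2 rose and 2 fell (19% called, against 22.2%). HSPA9, the matrix chaperone that pulls in imported proteins, rose (0.18, adjusted p = 0.00012), as did SLC25A5, an ADP/ATP carrier (0.17), while TIMM23, of the inner membrane import channel (-0.12), and TOMM70, an import receptor of the outer membrane (-0.095), fell. The call of TOMM70 was lost without siNC 2, 3, 5 or 6 or siZCC 1, 3, 4 or 6 (adjusted p up to 0.0816). Of 11 genes of uncoupling and alternative dehydrogenases, SLC25A14 fell (-0.12).

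**Figure D5:**
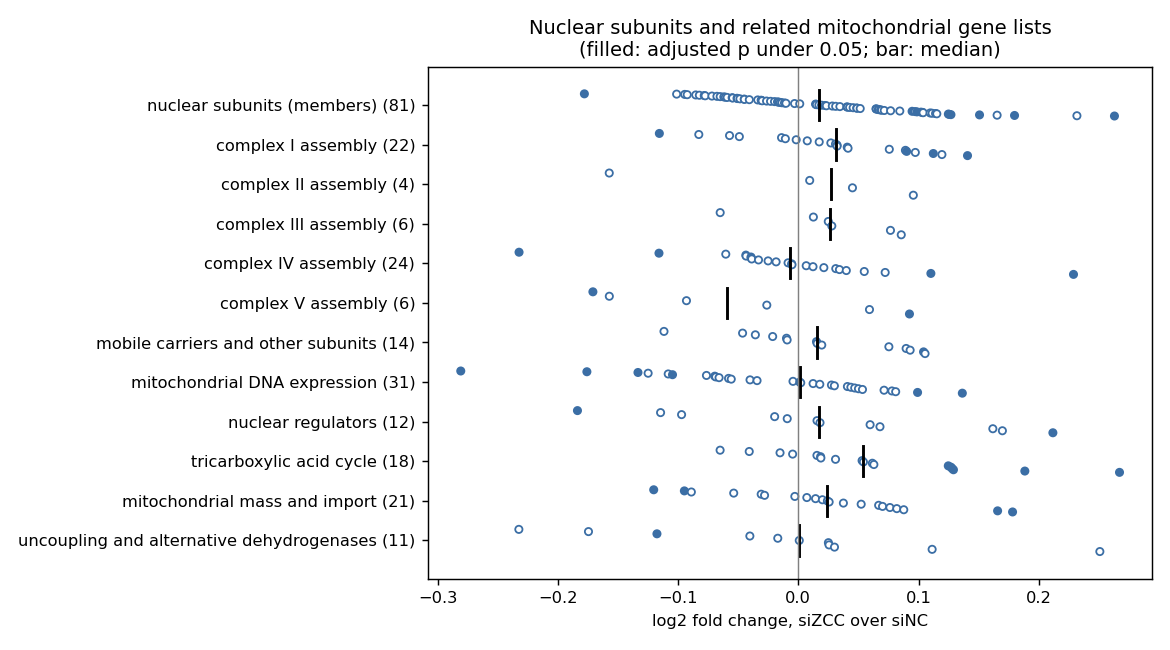
Log2 fold change of siZCC against siNC for the 81 nuclear subunit genes in the top row and the genes of each related list below it, 1 point per gene, with genes past an adjusted p of 0.05 filled and the median of each row as a vertical bar. The citric acid cycle list has called genes above 0 only, and the mitochondrial DNA expression list has 2 above and 4 below.

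The 12 called genes were also compared within the IL1B split, which was chosen after seeing the data. Among the 6 libraries above 1 CPM of IL1B, 5 of the 94 genes were called, where 8.2% of all genes tested were, and among the 6 below it 3 were called, where 6.45% of all genes tested were. All 12 genes kept their direction on both sides, but they were called from these same libraries, so this is not separate support. With the split as a block in the fit of all 12 libraries, 16 of the 94 genes were called, where 23% of all genes tested were.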

How the data were processed

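Libraries of total RNA were prepared with a directional NEBNext Ultra II kit, per the labels' protocols. The authors deposited whole-number counts per gene symbol, 1 column per library; the submitters' processing notes name bcl2fastq 2.17, STAR 2.7.6a, featureCounts 2.0.1 and GRCh38, but annotation, strand setting and treatment of reads that fit several genes are not given in the sources used here. The 94 genes, the related lists and the markers were chosen with earlier results of these data known. Counts were analysed in R 4.3.3 with edgeR 4.0.16: filterByExpr kept 24671 of 59653 genes, library sizes were scaled by TMM, and siZCC was set against siNC in the quasi-likelihood test with Benjamini-Hochberg adjustment over all genes kept and a threshold of 0.05. A "called" gene passed that threshold. Standard errors are the log2 fold change divided by the square root of F, and CPM values are TMM-scaled. The depth of 76115083 to 120023356 counts makes counting error small for most genes, and the spread between libraries (biological coefficient of variation 6.55%) sets the precision.

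Named genes were ZCCHC17, every called gene of the 94, the mitochondrial protein genes, paralogue sets and, in each related list, the 2 smallest p-values among called genes; others were named after their values were seen. Alternatives were DESeq2 1.42.0, limma 3.58.1 voom, other scalings, filters and library sizes, the replicate number as a block, a GC content and length correction, thinning, leaving out each library, and, added after seeing the data, the IL1B split. In simulated counts of 24362 genes for siZCC against siNC, 200 genes were changed, 50 by each amount. Changes of 0.1 (log2) were found in 0% of cases, of 0.25 in 72%, of 0.5 in 90% and of 1 in 100%, with 7.09% false calls. With so few changed genes the adjusted threshold is harder to pass than in the data, where 5481 of 24671 genes passed. These percentages therefore do not give the power for the 94 genes. GENCODE v29 (GRCh38), in which 92% of symbols were found, gave positions, lengths and transcripts, and RefSeq (GRCh38.p14) gave promoters, read with Python 3.11.15 and Biopython 1.88. Reads, splicing and proteins were not analysed here. Some genes that the naming rule covers are not reported here.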

Additional observations from a re-analysis of the deposited data

Results flagged for a closer look

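In 190 groups of 6 values (library totals, shares and named genes), 6 had a highest or lowest library set far apart from the other 5 by Dixon's criterion for a group of 6, where chance alone would give about 9.5. NDUFC2 was at 24.2 CPM in siNC 3, against 19.5 to 20.7 in the other siNC libraries, and without siNC 3 its adjusted p stayed under 0.05. MT-ATP6 was at 1818 CPM in siZCC 1, against 1928 to 1986 in the other siZCC libraries, and without siZCC 1 its call was lost. ATP5F1C was at 101.4 CPM in siNC 3, against 89.1 to 92.9 in the other siNC libraries, ATP5F1D at 43.2 CPM in siNC 1, against 52 to 54.7, and TIMM23 at 42.1 CPM in siNC 3, against 38.7 to 40. The siNC 4 library held 90755953 counts, while the other 5 of that group held 109973707 to 120023356.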

How the results depend on the processing

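All 12 called genes kept their direction in every alternative setting in which they were fitted, and NDUFS7 and NDUFV1 stayed under an adjusted p of 0.05 in all of them. Every setting used all or part of the libraries that gave the calls, so a kept direction is not separate support. When 1 library was left out, the counts of called genes ran from 4484 to 5626 over all genes, 6 to 16 over the 94 genes, 4 to 14 over nuclear and 2 to 3 over mitochondrial genes, and by complex 3 to 6 (I), 0 to 0 (II), 1 to 2 (III), 1 to 5 (IV) and 0 to 3 (V). The cause of the losses was not tested; those that leave out libraries rest on fewer samples.

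The replicate numbers did not pair the libraries: the correlation of same-numbered deviations ran from -0.077 to 0.018, and no library correlated best with its own number throughout. With the replicate block, 6 of the 94 genes were called, where 19.9% of all genes tested were. Of these, 4 were nuclear, and by complex there were 1 in III, 1 in IV and 0 in V. The correction for GC content and length called 19 of the nuclear genes, 7 in complex I and 2 in complex II (26.7% of all genes in that fit). With the replicate block as well it called 13 (25.7% of all genes in that fit). DESeq2's Wald test called 14 nuclear genes and 4 in complex V, where it called 24.8% of all genes tested. Upper quartile scaling called 9 of the 94 genes, 5 higher and 4 lower, against 10 higher and 2 lower in the main fit. It called 1 in complex III and 1 in complex IV. With this scaling 22% of all genes tested were called, and 46.4% of those were higher. No filter on low counts gave 1 in complex III and 0 in complex V (9.92% of all genes in that fit). The IL1B split as a block gave 4 in complex V, where 23% of all genes tested were called. Libraries above 1 CPM of IL1B gave 2043 over all genes, 5 of the 94, 3 nuclear, and 0 in complex III, 1 in IV and 0 in V. Libraries below it gave 1602 over all genes, 3 of the 94, 3 nuclear, 0 mitochondrial, and 2 in complex I, 1 in III, 0 in IV and 0 in V.

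Signs that changed were those of genes that were not called. With 1 library left out, log2 fold changes ran from -0.023 to 0.031 for COX6A1, -0.038 to 0.025 for COX7A2, -0.0011 to 0.034 for COX7B, -0.072 to 0.012 for MT-ATP8, -0.024 to 0.0087 for MT-ND1, -0.0029 to 0.026 for MT-ND3, -0.051 to 0.018 for MT-ND6, -0.00013 to 0.095 for NDUFA4L2 and -0.0067 to 0.070 for MTATP6P1. Above 1 CPM of IL1B the values were 0.016 for MT-ND1, 0.010 for MT-ND6, -0.038 for SDHD, -0.021 for NDUFA4, -0.029 for COX6A1 and -0.0072 for COX7B. Below it they were -0.026 for MT-CO2, 0.044 for MT-ATP8, -0.0029 for MT-ND3, -0.055 for NDUFA4L2, 0.060 for COX7A2, 0.0035 for NDUFB8 and -0.059 for MTATP6P1. COX6A1 was at -0.0073 with upper quartile scaling and -0.0045 with no filter. With the GC content and length correction COX7A2 was at 0.0041 and ATP5MC3 at 0.0051, and with the replicate block as well NDUFA4L2 was at -0.0034, COX7A2 at 0.0058 and ATP5MC3 at 0.0048. The power to find changes of 0.1 or less on the log2 scale was not estimated for the 94 genes, whose median standard error was 0.038. Calls with changes under 0.1 were those of MT-ATP6 (-0.091), ATP5F1B (0.095) and COX7A2L (0.099). Each of these calls was lost when certain single libraries were left out.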

Other observations

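The ribosomal RNAs and transfer RNAs of the mitochondrial DNA, which lie outside the protein genes described above, were examined after results were seen. Both ribosomal RNA genes rose: MT-RNR1 went from 1130.1 ± 63.7 to 1271 ± 88.5 CPM (SD, n = 6 each; log2 fold change 0.17, SE 0.045, edgeR adjusted p = 0.0124). MT-RNR2 went from 8794 ± 277 to 9638 ± 144 CPM (log2 fold change 0.13, edgeR adjusted p = 0.00113). Of 8 transfer RNA genes on the light strand, all 8 had log2 fold changes below 0 and 4 fell, where 10.8% of all genes tested fell: MT-TQ (-0.71, adjusted p = 0.00015), MT-TP (-0.57, adjusted p = 0.000207), MT-TY (-0.49, adjusted p = 0.0129) and MT-TE (-0.47, adjusted p = 0.0352). MT-TQ had 2.63 ± 0.41 CPM in siNC and 1.61 ± 0.159 in siZCC, and MT-TP 2.52 ± 0.22 and 1.69 ± 0.207 (SD, n = 6 each). The call of MT-TE was lost without any one of 9 libraries, all but siNC 1, siNC 2 and siZCC 2 (adjusted p up to 0.0805). Of 6 transfer RNA genes on the heavy strand, 0 passed the test, with 4 above 0 and 2 below and a median of 0.035. Counts of these short genes were low, with means of 11.8 to 235 per library, and light-strand genes lie opposite heavy-strand transcripts, so without the strand setting their reads cannot be assigned with certainty. The difference between the strands was not tested.

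Of 24 nuclear copies of mitochondrial protein genes that passed the filter, 9 rose and 0 fell, where 11.4% of all genes tested rose and 10.8% fell, with a median log2 fold change of 0.19, and 21 of 24 values were above 0. The 13 mitochondrial protein genes themselves had a median of -0.0027. Copies with high counts were MTCO1P12 (0.29, adjusted p = 0.000608), MTCO2P12 (0.28, adjusted p = 0.00537), MTND4P12 (0.29, adjusted p = 0.000612) and MTATP6P1 (0.036, adjusted p = 0.707), the last of which did not pass. Reads of a copy and of its mitochondrial gene cannot be told apart over shared words.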
